A study of Mus musculus with 6 samples.

Results

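The D cyclins, one of their kinase partners, the inhibitors of that kinase and the retinoblastoma family were followed in proximal tibial epiphyses of Longshanks and Control mice, as the rows of the deposited gene table whose Ensembl identifiers carry these symbols in a GRCm38 annotation. They are 10 genes of the 47729 in the table, and comprise 3 D cyclins (*Ccnd1*, *Ccnd2*, *Ccnd3*), 1 kinase (*Cdk6*), 3 CDK inhibitors (*Cdkn1a*, *Cdkn1b*, *Cdkn2c*) and 3 pocket proteins (*Rb1*, *Rbl1*, *Rbl2*). The rule names genes and uses no measured value. The RNAseq experiment compared 3 mice of LS1, a Longshanks line bred by selection for a longer tibia at a given body mass, with 3 mice of a random-bred Control line of the same stock (ICR, also called CD-1), all untreated and 14 days old. The mice came from different families, and the proximal epiphyses of both tibiae of each mouse were pooled into 1 library. A library therefore holds growth plate, metaphysis, articular cartilage, secondary ossification center and marrow together. LS1 is a single selected line and no engineered allele is involved, so the effect of selection and any other difference between these lines cannot be told apart.

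D cyclins are made in response to growth signals and bind CDK4 or CDK6, and the active kinase phosphorylates the pocket proteins, which then release E2F transcription factors and let the cell enter S phase. INK4 inhibitors such as the product of *Cdkn2c* bind CDK4 and CDK6 directly, whereas CIP/KIP inhibitors such as p21 (*Cdkn1a*) and p27 (*Cdkn1b*) bind cyclin-kinase complexes. In the growth plate, chondrocytes of the proliferative columns cycle and then leave the cycle before hypertrophy, and p107 (*Rbl1*) and p130 (*Rbl2*) are known to be needed for that exit.

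The libraries held 68803249 to 76581954 reads assigned to genes in Control and 82227711 to 88745366 in LS1, so that the shallowest LS1 library exceeded the deepest Control library. Values below are normalized counts, the read counts divided by 1 size factor per library. Across all genes, replicate 3 of LS1 stood apart from the other LS1 libraries. On the first principal component, with 35.1% of the variance, it lay at -4.29, between the Control libraries (-41.5 to -22.1) and the other LS1 libraries (43.7 and 50.1). Of the labelled tissues, the 10 chondrocyte, 7 osteoblast and 5 osteoclast markers were each read in every library. The marrow was also well represented, since the 10 erythroid markers summed to 219194 to 470831 normalized counts.

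None of the 10 genes passed the test between LS1 and Control. All 10 were past the filter on low counts, with 1804 to 16830 reads per library. Differences were tested with limma over 19308 genes, of which 14 (0.0725%) had an adjusted p-value under 0.05, 2 of them (0.0104%) higher and 12 (0.0622%) lower in LS1. The adjusted p-values of the 10 genes ran from 0.264 to 0.972 in limma. Without adjustment, 2 of the 10 had a p-value under 0.05, where 12.9% of all tested genes did. The groups did not overlap in 2 of the 10, *Ccnd1* (higher in LS1) and *Ccnd3* (lower in LS1), where 19.2% of all tested genes did not overlap. DESeq2 on the recovered reads called 2.51% of the genes to which it gave an adjusted p-value, and none of the 10, and edgeR also called none of them. The median log2 fold change of the 10 was 0.016, against 0.0054 over all genes tested. The smallest p-value that an exact permutation test allows with 3 mice against 3 is 0.1, so that test cannot pass 0.05 for any single gene.

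**Figure D1:**
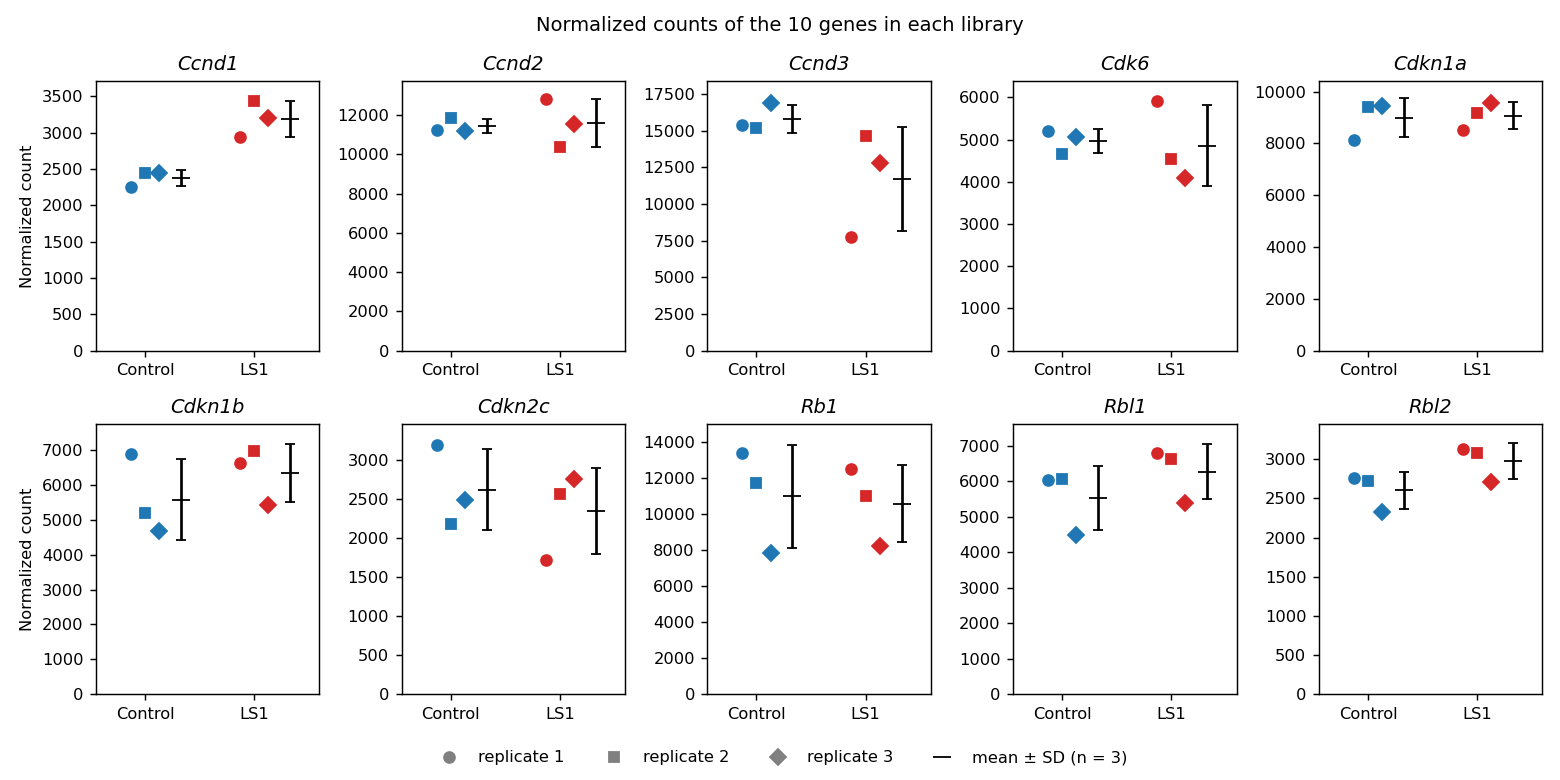
Normalized counts of the 10 genes in each library, with the mean ± SD of each group (n = 3) beside the points and every axis starting at 0. The 3 LS1 points lie above the 3 Control points for *Ccnd1* and below them for *Ccnd3*, while the groups overlap for the other 8 genes.

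*Ccnd1* encodes cyclin D1, the D cyclin of proliferating growth plate chondrocytes, and lies at chr7:144929931-144939925 on the minus strand (ENSMUSG00000070348). The 3 Control libraries held 2253, 2446 and 2444 normalized counts and the 3 LS1 libraries held 2942, 3438 and 3197. The lowest LS1 value exceeded the highest Control value. The means were 2381 ± 111 in Control and 3192 ± 248 in LS1 (SD, n = 3 each), a fold of 1.34 on the scale of the fit. The log2 fold change was 0.42 ± 0.13 (SE), with a 95% confidence interval of 0.12 to 0.72. It did not pass the threshold in limma (unadjusted p-value of 0.00952 and adjusted p of 0.264, both from the limma fit over all genes, and an exact permutation p of 0.1). Under the 16 alternatives it stayed between 0.37 and 0.48, with an adjusted p-value of 0.123 to 0.559 across the tools limma, edgeR and DESeq2. It was 0.42 without LS1 replicate 3, the library that stood apart. In a bulk sample of this kind, a change in the number of cells of a type and a change in the RNA per cell cannot be told apart.

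The gene overlaps *LTO1* on the opposite strand, and whether the counting used strand is not given in the sources used here. *LTO1* itself had 2154, 2173 and 1985 normalized counts in Control and 1712, 2207 and 2744 in LS1. These groups overlap, with a log2 fold change of 0.053 ± 0.18 (SE). All 10 markers of chondrocytes, the cells of cartilage, were above 0 on the log2 fold scale, with a median of 0.56. None of them passed the threshold in limma over all 6 libraries. In the higher direction, 7 had an unadjusted p-value under 0.05 (7.08% of all tested genes did). DESeq2 called 5, among 456 genes in all. In limma, 4 were called without LS1 replicate 3 and 2 with no filter on reads, settings that called 324 and 45 genes in all. The study itself drew 3 of these 10 genes (*Hapln1*, *Matn3* and *Col10a1*) from its list of genes that differed in these samples. All 10 were listed with earlier results of these data known, so they are no independent evidence of a direction. The summed normalized count of the 10 lay between 2491809 and 2859374 in Control, against 3323849 to 3769693 in LS1. None of the 10 was at 0 in any library. The sum and *Ccnd1* were each highest in LS1 replicate 2 of the 6 libraries. The remaining LS1 libraries did not keep this order. Replicate 1 had a lower *Ccnd1* than replicate 3 (2942 against 3197) but a higher sum (3418874 against 3323849). The part of cartilage content in the *Ccnd1* difference was not tested.

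*Ccnd2*, cyclin D2, lies at chr6:127125162-127152193 on the minus strand (ENSMUSG00000000184) and overlaps *Gm43126* and *9330179D12Rik* on the opposite strand. Control mice had 11239, 11839 and 11190.0 normalized counts and LS1 mice 12831, 10373 and 11558. The highest and the lowest of the 6 libraries are both LS1, and the groups overlap. Between the groups the log2 fold change was 0.016 ± 0.13 (SE), with a 95% confidence interval of -0.26 to 0.30 (limma adjusted p = 0.972).

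*Ccnd3* encodes cyclin D3, the D cyclin on which developing erythroid cells and lymphocyte precursors are known to rely, and lies at chr17:47505051-47599691 on the plus strand (ENSMUSG00000034165). Its normalized counts were 15379.9, 15178 and 16899.5 in Control replicates 1 to 3 and 7787, 14646 and 12789 in LS1 replicates 1 to 3. The highest LS1 value lay under the lowest Control value, and LS1 replicate 1 was far below the other LS1 libraries. The means were 15819 ± 941 in Control and 11741 ± 3548 in LS1 (SD, n = 3 each), and the coefficient of variation was 30.2% in LS1 against 5.95% in Control. The limma fit gave a log2 fold change of -0.48 ± 0.21 (SE), with a 95% confidence interval of -0.93 to -0.025. It did not pass the threshold in limma (unadjusted p-value of 0.0403 and adjusted p of 0.360 from limma, and an exact permutation p of 0.1). LS1 replicate 1 decided much of its size. The log2 fold change shrank to -0.21 when that library was left out, and leaving out LS1 replicate 2 or 3 gave -0.66 and -0.57. The unadjusted p-value was under 0.05 in 10 of the 16 alternatives.

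A promoter of *Ccnd3* is shown because this was the D cyclin whose groups separated in the lower direction. RefSeq gives 2 promoters for this gene, and the one at the upstream start is printed. The counts are per gene and do not show which start was used in this tissue. It is the 150 bases before that start in GRCm38.p6, chr17:47504901-47505050 on the plus strand, with capitals on the letters of a GC box, here GGGCGG on the opposite strand.
Ccnd3: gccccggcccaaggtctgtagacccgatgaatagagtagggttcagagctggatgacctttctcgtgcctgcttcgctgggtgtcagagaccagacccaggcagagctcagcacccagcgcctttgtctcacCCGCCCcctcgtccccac
GGGCGG stands, on either strand, in 32.7% of the 32841 mouse promoters of the same length searched (250 bases before the start), so its presence does not set this gene apart. None of the E2F letters given with *Rbl1* below, and no CHR letters (TTTGAA), were found in that window.

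Erythroid and B cell markers were mostly lower in LS1 as well. Of 10 erythroid markers all were below 0 on the log2 fold scale, with a median of -0.51 (-0.32 without LS1 replicate 1). Their summed normalized count lay between 331110.5 and 470831 in Control, against 219194 to 365732 in LS1, with overlap. LS1 replicate 1 had the lowest *Ccnd3* and the lowest erythroid sum, and among LS1 replicate 2 had the highest of both. The Control libraries did not follow this order. Control replicate 3 had the highest *Ccnd3* of the 6 libraries (16899.5) and the lowest erythroid sum of Control (331110.5). Of 10 B cell markers 9 were below 0, with a median of -0.47 (-0.25 without LS1 replicate 2) and a sum of 55902 to 58727 in Control, against 33649 to 51434 in LS1. The B cell sum was lowest in LS1 replicate 2 instead. None of these 20 markers was at 0 in any library, and none passed the threshold in limma over all 6 libraries. Without LS1 replicate 3, limma called 4 B cell markers and 1 erythroid marker, among 324 genes in all. DESeq2 on all libraries called 1 B cell marker and no erythroid marker, among 456 genes in all. In the fit over all 6 libraries, 6 erythroid and 7 B cell markers had an unadjusted p-value under 0.05 in the lower direction, where 5.86% of all tested genes did. The part of blood cell content in the *Ccnd3* difference was not tested. *Bysl*, which overlaps *Ccnd3* on the opposite strand, had 2174, 2004 and 2521 normalized counts in Control and 1785, 2234 and 2201 in LS1, and its groups overlap.

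**Figure D2:**
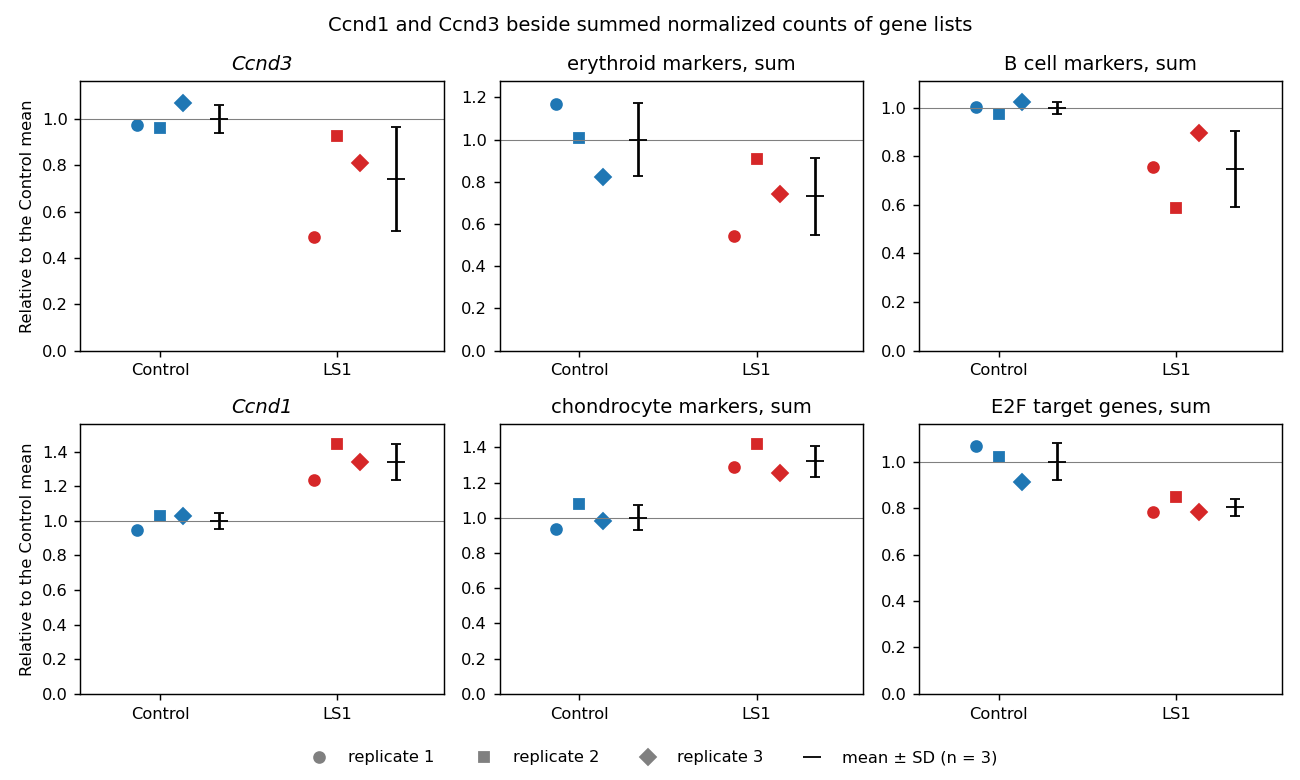
*Ccnd3* and *Ccnd1* in each library beside the summed normalized counts of gene lists, every value relative to the Control mean, with the mean ± SD of each group (n = 3). LS1 replicate 1 is lowest for both *Ccnd3* and the erythroid sum, while Control replicate 3 is highest for *Ccnd3* and lowest of Control for that sum. The LS1 points of the chondrocyte sum, like those of *Ccnd1*, all lie above Control.

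Within the D cyclin class, levels were compared per kilobase of exon (the union of a gene's exons). *Ccnd1* made up 14.0%, 14.8% and 14.3% of the summed D cyclin level in Control replicates 1 to 3, and in LS1 it reached 21.7%, 20.9% and 20.2%. These shares are 14.4% ± 0.425 and 20.9% ± 0.776 (SD, n = 3 each) and do not overlap. The share of *Ccnd1* varied little among the LS1 libraries, but *Ccnd1* itself varied more. LS1 replicate 1 had the highest share and the lowest *Ccnd1* of LS1 (2942 normalized counts, against 3438 and 3197). Its *Ccnd3* and its D cyclin sum, by which the share is divided, were also the lowest. For *Ccnd3* the share was 51.2%, 49.3% and 52.99% in Control and 30.9%, 47.7% and 43.3% in LS1, again without overlap, and for *Ccnd2* it was 34.9%, 35.9% and 32.7% in Control against 47.4%, 31.5% and 36.5% in LS1, with overlap. The ratio of *Ccnd1* to *Ccnd3* per kilobase ran from 0.27 to 0.30 in Control, against 0.44 to 0.70 in LS1. Since *Ccnd1* alone was higher and *Ccnd3* alone lower in every LS1 library, this ratio had to separate. It is no further evidence of a difference. The sum of the 3 genes per kilobase overlapped between the groups, at 3426 to 3634 in Control against 2876 to 3502 in LS1. With the longest transcript as the length, the *Ccnd1* share ran from 9.47% to 10.1% in Control, against 14.3% to 16.3% in LS1. No test was run on shares, and the share of one gene moves when another gene of its class does.

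**Figure D3:**
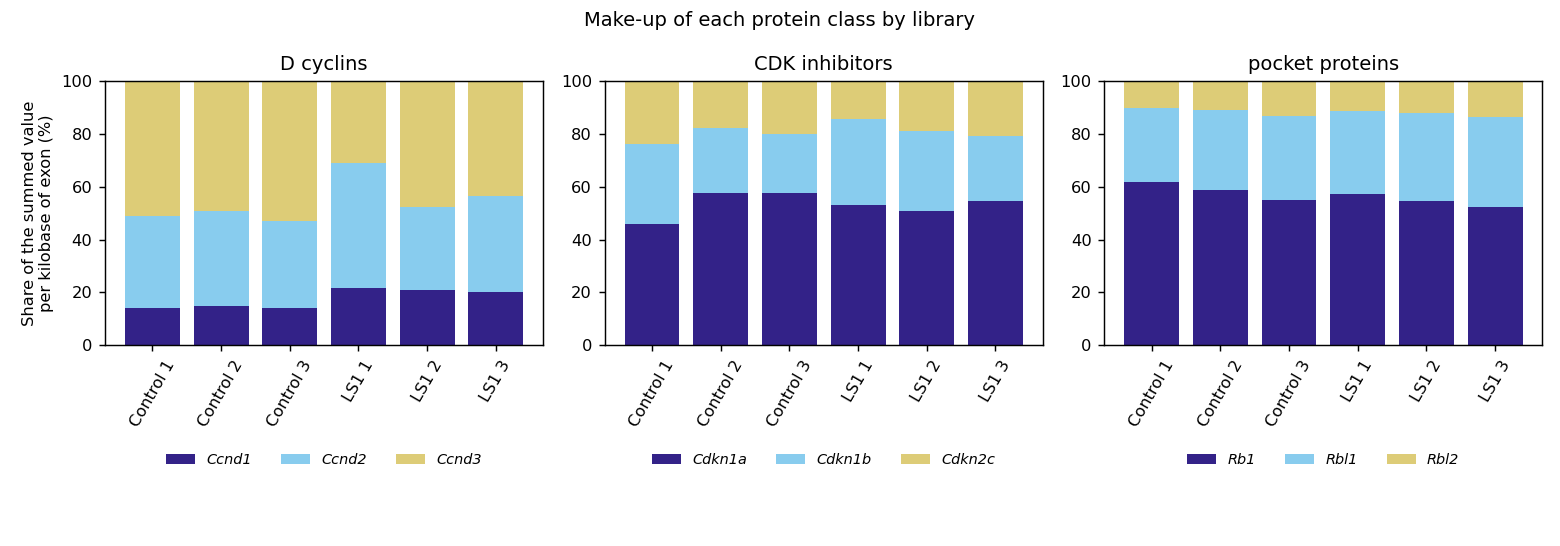
Share of each gene in the summed value per kilobase of exon of its class, in percent, as stacked bars for the 6 libraries. The *Ccnd1* segment is 13.97% to 14.8% of the D cyclin bar in Control and 20.2% to 21.7% in LS1, while the inhibitor and pocket protein bars overlap between the groups.

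*Cdk6*, a kinase partner of the D cyclins, lies at chr5:3341485-3531008 on the plus strand (ENSMUSG00000040274). The 3 Control libraries held 5201, 4654 and 5069 normalized counts and the 3 LS1 libraries held 5925, 4544 and 4085. The LS1 values span a wider range than the Control values, from the lowest to the highest of the 6 libraries. On the log2 scale, LS1 minus Control was -0.053 ± 0.15 (SE), with a 95% confidence interval of -0.39 to 0.29 (limma adjusted p = 0.914). The gene overlaps *Gm17590* and *Gm42435* on the opposite strand. *Cdk4*, the other D cyclin kinase, was 14.3 to 15.4 times the level of *Cdk6* per kilobase in Control and 9.91 to 22.0 times in LS1.

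*Cdkn1a* encodes p21, an inhibitor that p53 induces and that growth arrest signals such as FGF raise in chondrocytes, and lies at chr17:29090976-29100727 on the plus strand (ENSMUSG00000023067), opposite *AC167363.2*. Control mice had 8124, 9407 and 9440.2 normalized counts and LS1 mice 8502, 9178 and 9549. The groups overlap almost fully, and replicate 1 is the lowest library in both. The log2 fold change was 0.015 ± 0.13 (SE), with a 95% confidence interval of -0.26 to 0.29 (limma adjusted p = 0.972). The interval leaves room for a change of up to 1.22-fold higher.

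*Cdkn1b* encodes p27, which accumulates in cells that leave the cycle, and lies at chr6:134920401-134925513 on the plus strand (ENSMUSG00000003031) with no overlapping gene in the annotation. Its normalized counts were 6898, 5198 and 4669.8 in Control replicates 1 to 3 and 6649.6, 6988 and 5423 in LS1 replicates 1 to 3. The highest Control library is above 2 of the 3 LS1 libraries, so the groups overlap. Between the groups the log2 fold change was 0.20 ± 0.17 (SE), with a 95% confidence interval of -0.17 to 0.57 (limma adjusted p = 0.652).

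*Cdkn2c* encodes p18, an INK4 inhibitor, and lies at chr4:109660876-109667189 on the minus strand (ENSMUSG00000028551), also without an overlapping gene. The 3 Control libraries held 3194, 2185 and 2489.7 normalized counts and the 3 LS1 libraries held 1718, 2565 and 2755. The extremes of the 6 libraries are Control replicate 1 and LS1 replicate 1, in opposite directions. The limma fit gave a log2 fold change of -0.17 ± 0.21 (SE), with a 95% confidence interval of -0.62 to 0.28 (limma adjusted p = 0.756). It turned to 0.04 without LS1 replicate 1.

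As a class, the 3 inhibitors together reached 4603 to 4991 per kilobase in Control, against 4493 to 5073 in LS1. *Cdkn1a* was the largest share in every library, at 45.8%, 57.5% and 57.6% in Control and 53.3%, 50.9% and 54.8% in LS1. Both measures overlap between the groups.

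*Rb1* encodes the retinoblastoma protein, the founding pocket protein, and lies at chr14:73183673-73325822 on the minus strand (ENSMUSG00000022105). Control mice had 13404, 11728 and 7815 normalized counts and LS1 mice 12489.7, 11001 and 8243. Replicate 3 was the lowest library in both groups, and the spread within a group was larger than the difference between them. On the log2 scale, LS1 minus Control was -0.039 ± 0.21 (SE), with a 95% confidence interval of -0.51 to 0.43 (limma adjusted p = 0.958), and its sign turned in 4 of the alternatives. The gene contains *Gm17233* and *Mir687* on its own strand and overlaps *Rcbtb2* and *Lpar6* on the other. *Lpar6* was higher in LS1, with 1178, 1243 and 1045 normalized counts in Control and 1884, 1706 and 1424 in LS1, a log2 fold change of 0.53 ± 0.17 (SE) and a limma adjusted p of 0.261. The part of such reads in the *Rb1* count was not tested.

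*Rbl1* encodes p107, itself known as a gene that E2F factors regulate, and lies at chr2:157145893-157204534 on the minus strand (ENSMUSG00000027641), opposite *Gm14277*. Its normalized counts were 6051, 6083 and 4499 in Control replicates 1 to 3 and 6817, 6631 and 5379 in LS1 replicates 1 to 3. Replicate 3 is again the lowest library of each group, and the groups overlap. The log2 fold change was 0.18 ± 0.16 (SE), with a 95% confidence interval of -0.16 to 0.53 (limma adjusted p = 0.654).

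The promoter of *Rbl1* is shown because of the 10 promoters that RefSeq gives for 7 of the 10 genes, it is 1 of the 2 in which E2F letters were found (the other belongs to *Cdkn2c*). It is the 150 bases before the start in GRCm38.p6, chr2:157204535-157204684 on the minus strand, with the letters TTCGCGC in capitals 17 bases before the start.
Rbl1: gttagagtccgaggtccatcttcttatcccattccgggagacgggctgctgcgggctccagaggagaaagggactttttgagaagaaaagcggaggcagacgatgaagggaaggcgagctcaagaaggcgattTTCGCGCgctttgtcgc
The E2F letters searched were TTCGCGC. A further form of them was TTGGCGC. The last form was TTCCCGC. At least 1 of these forms stands on either strand in 2198 of the 32841 promoters searched (6.69%). A match of letters is not a measured binding site.

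*Rbl2* encodes p130, the pocket protein of resting cells and part of the DREAM complex, and lies at chr8:91070057-91123844 on the plus strand (ENSMUSG00000031666). The 3 Control libraries held 2765, 2719 and 2328 normalized counts and the 3 LS1 libraries held 3138, 3083 and 2711. The groups overlap only through LS1 replicate 3. Between the groups the log2 fold change was 0.19 ± 0.14 (SE), with a 95% confidence interval of -0.12 to 0.50 (limma adjusted p = 0.584). The CHR letters TTTGAA, which 16.0% of the promoters searched hold, were found 201 bases before its start. On the opposite strand it overlaps *Gm45464* and *Aktip*, and *Aktip* had a log2 fold change of -0.0084 ± 0.15 (SE).

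The pocket protein sum per kilobase ran from 2358 to 3604 in Control, against 2627 to 3629 in LS1, and the *Rb1* share was 61.8%, 58.6% and 55.1% in Control against 57.2%, 54.7% and 52.2% in LS1. Both overlap between the groups. Control replicate 3 and LS1 replicate 3 were each the lowest library of their group in 5 of the 10 genes, among them all 3 pocket proteins.

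Per kilobase of exon, the order of the Control levels was led by *Cdkn1a* (2530.4 ± 211, mean ± SD, n = 3), whose 3 values were above all values of *Rb1* (1826 ± 477), next in the order. *Rb1* and *Ccnd3* (1803 ± 107) overlapped. A middle group held *Cdkn1b* (1228 ± 256), *Ccnd2* (1214 ± 38.4), *Cdkn2c* (977 ± 193) and *Rbl1* (925 ± 151), in which each gene overlapped the next. *Ccnd1* (506 ± 23.5) stood apart from its neighbours on both sides, and *Cdk6* (356 ± 20.4) and *Rbl2* (345 ± 31.7) were lowest and overlapped. With the longest transcript as the length, *Cdkn1a* stayed first, *Ccnd1* stayed eighth and 4 pairs of neighbours exchanged places. This order rests on annotated lengths of exon, which need not be the lengths of the transcripts in this tissue.

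The other genes of the G1 machinery, 13 cyclins, kinases, inhibitors and CDC25A, had a median log2 fold change of -0.15, and none passed the threshold in limma, edgeR or DESeq2. Leaving out LS1 replicate 1 or Control replicate 1 moved the median to -0.069 and -0.078. Without adjustment 1 was higher and 2 were lower at p under 0.05, where 7.08% and 5.86% of all tested genes were, and the lower count ran from 0 (without Control replicate 1) to 4 over the alternatives. From here on, log2 fold changes are given ± SE. *Ccne1*, cyclin E1, the cyclin that follows cyclin D in late G1, had 10688, 9195 and 8475 normalized counts in Control and 4577, 8079 and 7391 in LS1. LS1 replicate 1 was lowest and the groups did not overlap, with a log2 fold change of -0.54 ± 0.20 and a limma adjusted p of 0.311. *Ccna2*, the S phase cyclin A2, had 18871, 17645 and 14827 normalized counts in Control and 13057, 13368 and 13945 in LS1. Here too the groups did not overlap, with a log2 fold change of -0.34 ± 0.13 and a limma adjusted p of 0.318. *Ccng1*, cyclin G1, a p53 target that is not a G1 cyclin in function, had 10195, 9670.5 and 9303 normalized counts in Control and 16622, 12257 and 10937 in LS1. Its LS1 values were all above Control, with a log2 fold change of 0.43 ± 0.16 and a limma adjusted p of 0.310.

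The kinases *Cdk2* (-0.33 ± 0.18), *Cdk1* (-0.32 ± 0.15) and *Cdk4* (0.078 ± 0.17), as log2 fold changes with their SE, overlapped between the groups. So did cyclin E2 (*Ccne2*, -0.21 ± 0.17) and cyclin G2 (*Ccng2*, 0.04 ± 0.15). *Cdc25a*, the phosphatase that activates CDK2, did not overlap and was lower by a small log2 fold change of -0.15 ± 0.12 (limma adjusted p = 0.626). Among the other inhibitors, *Cdkn1c*, which encodes p57 and is known for the cycle exit of chondrocytes, had a log2 fold change of 0.16 ± 0.17, and *Cdkn2d*, a further INK4 gene, -0.26 ± 0.22. *Cdkn2a* and *Cdkn2b*, the INK4 genes linked to senescence, had few reads. *Cdkn2a* had 119, 49.9 and 56.4 normalized counts in Control and 80.9, 80.1 and 128 in LS1, with a log2 fold change of 0.43 ± 0.38. *Cdkn2b* had 155, 75.4 and 127 normalized counts in Control and 124, 69.6 and 194 in LS1, with a log2 fold change of 0.055 ± 0.40. Their standard errors were the largest among the 13.

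**Figure D4:**
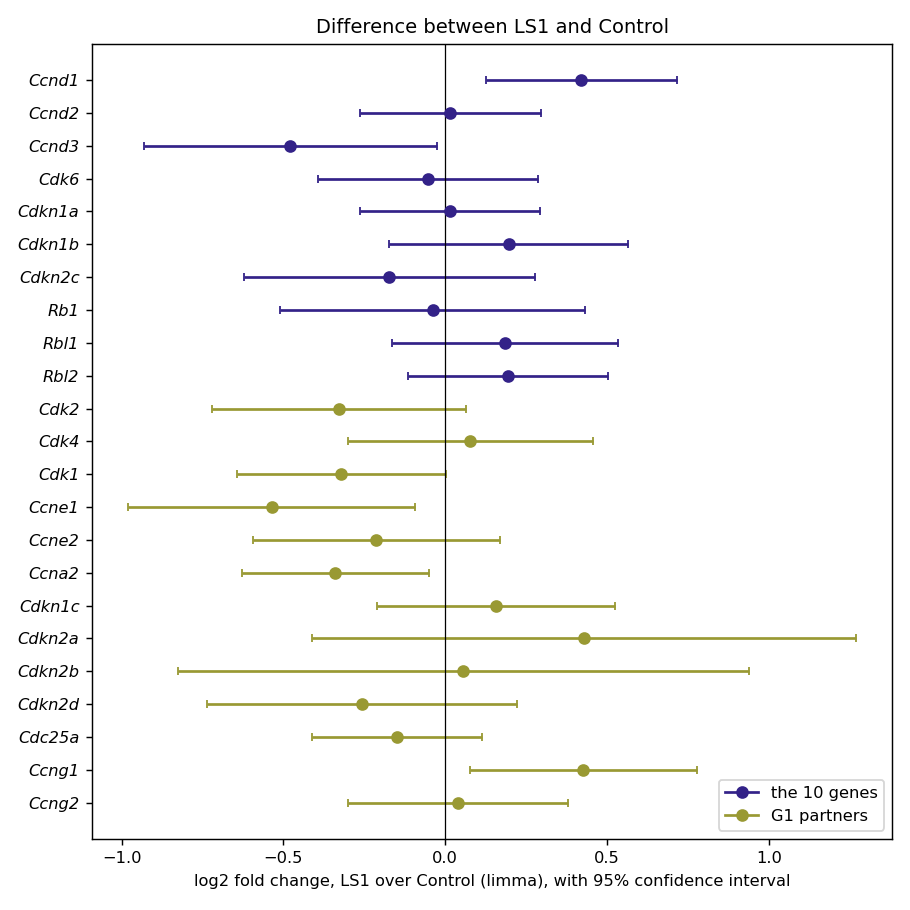
Log2 fold change, LS1 over Control, of the 10 genes and of the 13 G1 partners, with the 95% confidence interval of the limma fit. The intervals of *Ccnd1*, *Ccnd3*, *Ccne1*, *Ccna2* and *Ccng1* lie on one side of 0, and those of the other genes include 0.

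Downstream of the pocket proteins stand the E2F factors and their DP partners. The list also held the MuvB subunits of the DREAM complex and the MYB genes *Mybl1* and *Mybl2*. Of these 17 genes, 13 were below 0, with a median log2 fold change of -0.13 (-0.082 without LS1 replicate 1 and -0.21 without LS1 replicate 2). None passed the threshold in limma or edgeR, and DESeq2 called *Mybl2*. Without adjustment 4 were lower and 1 was higher at p under 0.05, where 5.86% and 7.08% of all tested genes were. *Mybl2*, which drives genes of the G2/M phase, had 8139, 8901 and 9633 normalized counts in Control and 4121, 6623 and 6397 in LS1, with a log2 fold change of -0.67 ± 0.18 and a limma adjusted p of 0.222. *E2f2* had 22931, 19971 and 20193 normalized counts in Control and 10119.6, 16214 and 15649.6 in LS1, with a log2 fold change of -0.62 ± 0.18 (limma adjusted p = 0.237). *E2f1* had 4809, 4477 and 5433 normalized counts in Control and 2348, 3488 and 3861 in LS1, with a log2 fold change of -0.63 ± 0.18 (limma adjusted p = 0.240). Both are activators of S phase genes, and in both the groups did not overlap and LS1 replicate 1 was lowest. *E2f8*, a repressor of the family, was also below Control in every LS1 library, by a log2 fold change of -0.49 ± 0.16 (limma adjusted p = 0.267).

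The 20 E2F target genes, most of which serve DNA replication or the supply of nucleotides, were below 0 in 20 of 20, with a median log2 fold change of -0.34. None passed the threshold in limma or edgeR, and DESeq2 called 1, *Mki67*. Without adjustment 9 had a p-value under 0.05 in the lower direction, where 5.86% of all tested genes did. The groups did not overlap in that direction for 12, where 8.94% of all tested genes did not. The list was chosen with earlier results of these data known, so these counts are no independent evidence of a direction. Under the alternatives the median lay between -0.44 and -0.24 and the unadjusted count between 4 (without Control replicate 1, when 19 of 20 were below 0) and 12, with 5 without Control replicate 2. *Mki67*, the proliferation marker Ki-67, had 104942, 99201 and 92177 normalized counts in Control and 73774, 66978 and 71469.9 in LS1, with a log2 fold change of -0.48 ± 0.13 (limma adjusted p = 0.220). *Mcm7*, a subunit of the replicative helicase, had 27978, 27219 and 23137 normalized counts in Control and 16832, 20452 and 19341 in LS1, with a log2 fold change of -0.47 ± 0.14 (limma adjusted p = 0.237). Both were below Control in every LS1 library. *Tyms*, thymidylate synthase (-0.45 ± 0.15), and *Mcm2*, another helicase subunit (-0.40 ± 0.13), also did not overlap, each with a limma adjusted p of 0.272. The summed normalized count of the 20 genes lay between 390955 and 457932 in Control, against 335407 to 363005 in LS1. The erythroid and B cell sums moved in the same direction, and their part in these values was not tested.

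p53 is the classical inducer of *Cdkn1a*. In a list of 20 genes, other p53 targets and *Trp53* itself, 15 were above 0, with a median log2 fold change of 0.15 (0.056 without LS1 replicate 2). None passed the threshold in limma or edgeR over all 6 libraries, and DESeq2 called *Fas*. Without LS1 replicate 3, limma called 1 gene of the list, among 324 genes in all. Without adjustment 4 were higher at p under 0.05, *Ccng1* among them, and none was lower, where 7.08% and 5.86% of all tested genes were. In the higher direction 6 did not overlap, where 10.3% of all tested genes did not. *Fas*, a death receptor that the study itself picked from these samples and that is therefore no independent evidence of direction, had 299.7, 330.4 and 354 normalized counts in Control and 811, 682 and 464 in LS1, with a log2 fold change of 0.96 ± 0.24 (limma adjusted p = 0.194). *Perp*, a membrane protein of cell junctions, had 194, 127 and 129 normalized counts in Control and 432, 278 and 209.9 in LS1, with a log2 fold change of 0.99 ± 0.31 (limma adjusted p = 0.257). *Gdf15*, a stress cytokine, had 39.4, 21.1 and 26.5 normalized counts in Control and 42.9, 74.8 and 52.2 in LS1, few counts, with a log2 fold change of 0.95 ± 0.40 (limma adjusted p = 0.346). *Cdkn1a* and *Mdm2*, 2 standard p53 targets, were at 0.015 and -0.0046 on the log2 fold scale.

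**Figure D5:**
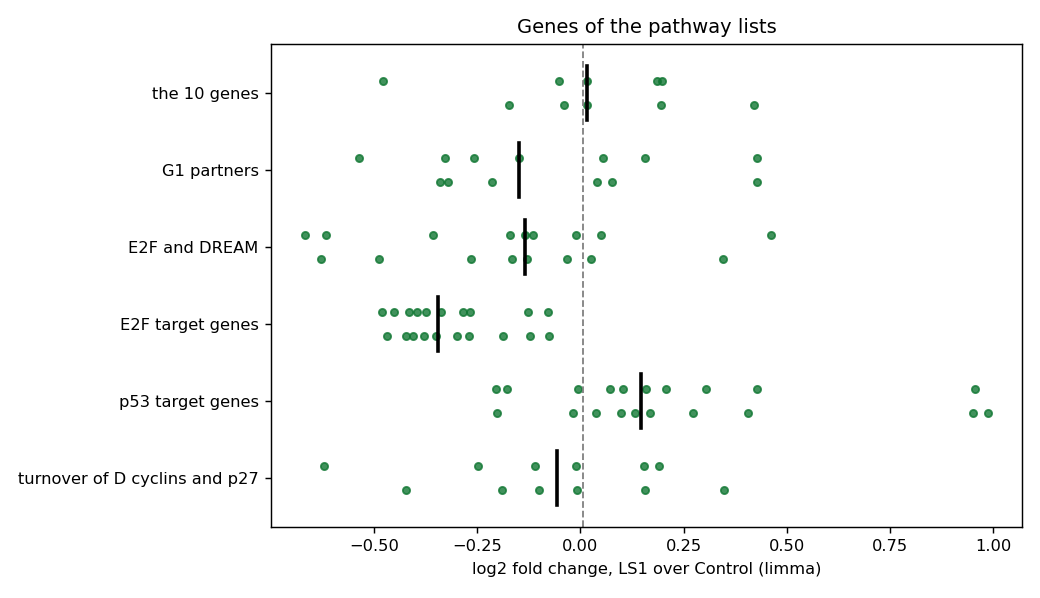
Log2 fold change (limma), LS1 over Control, of each gene of the 10 and of the pathway lists, 1 point per gene, with the median of each list as a bar and the median of all tested genes as a dashed line. All 20 E2F target genes lie below 0, while the 10 genes lie on both sides of it.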

How the data were processed

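RNAseq of polyadenylated RNA was carried out on proximal tibial epiphyses of 3 LS1 and 3 Control mice. Per the study's methods, reads were aligned by HISAT2 2.0.2 to the GRCm38 mouse genome, and featureCounts 1.4.6 counted reads for each gene before an analysis in DESeq2. The deposited table holds, a signal value for each gene, which is its read count over the size factor of the library, as set by the authors, for 47729 genes and 6 libraries, with 0 columns left unused. Dividing each value by the smallest positive value of its library gave whole reads for 100% of the values (tolerance 0.0001), 68803249 to 88745366 per library. In Control replicate 1 a single read was worth 1.01, close to 1, and 100% of its values were whole multiples of that value.

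Symbols, positions and exon lengths came from GENCODE M21 on GRCm38, which gave 98.9% of the identifiers a symbol, and promoters from RefSeq on GRCm38.p6. The 10 genes, the other lists and the tests were chosen with earlier results of these data known. Counts within the lists are therefore no independent evidence of a direction.

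LS1 and Control were compared by limma (version 3.58.1, R 4.3.3). Values were taken as log2(value + 1), and the fit used a mean-variance trend and robust moderation. It covered the 19308 genes whose recovered reads averaged 20 or more. P-values were two-sided and adjusted by the Benjamini-Hochberg method over all genes tested, with a threshold of 0.05. A fold change on this scale slightly understates that of genes with few counts. The alternatives were DESeq2 1.42.0 and edgeR 4.0.16 on the recovered reads, TMM factors, pseudocounts of 0.5 and 8, 2 other filters on reads, no robust moderation, a replicate block, each library left out, and edgeR without Control replicate 1, added after the data were seen. The code was tested on simulated data.

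Named genes are the 10, every G1 partner, and from each other pathway list the genes called or, where there were none, up to 4 with the smallest unadjusted p-value under 0.05. Genes that overlap the 10 are named as well. Lists were described by counts and medians, without a set test. The replicates differed by far more than sampling noise (chi-square per degree of freedom of 38.6 to 145).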

Additional observations from a re-analysis of the deposited data

How the results depend on the processing

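None of the 10 genes was called under any of the 16 alternatives. *Ccnd1*, *Ccnd3*, *Cdkn1b*, *Rbl1* and *Rbl2* kept their direction in all 16. When 1 library was left out in limma, the log2 fold change of *Ccnd2* ranged from -0.061 (without LS1 replicate 1) to 0.093. That of *Cdk6* ran from -0.21 to 0.062 (without LS1 replicate 3), and that of *Cdkn1a* from -0.056 to 0.062. For *Cdkn2c* it ran from -0.30 to 0.038 (without LS1 replicate 1) and for *Rb1* from -0.27 to 0.13 (without LS1 replicate 3). Each of these genes changed sign. *Cdkn1a* turned to -0.056 without Control replicate 1 and -0.022 without LS1 replicate 3, and *Rb1* to 0.12 without Control replicate 1 and 0.026 without Control replicate 2. In edgeR without Control replicate 1, an alternative chosen after seeing the data, the values that changed sign were -0.010 for *Ccnd2*, -0.074 for *Cdkn1a* and 0.095 for *Rb1*.

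Over all genes, limma called 14, DESeq2 456 (276 higher and 180 lower in LS1, against 2 and 12 in limma), edgeR 7, limma without a filter 45 and with a mean of at least 100 reads 9, and limma without robust moderation 7. Leaving out 1 library gave 5 (without Control replicate 2) to 324 (without LS1 replicate 3), with 9 without Control replicate 1 and 46 without LS1 replicate 1, and edgeR on the 5 libraries gave 5. The cause was not tested. The titles carry letters that could number the replicates, but the deviations of same-letter libraries correlated at 0.054, 0.021 and 0.224. Only the libraries of letter C correlated best with each other, so the letters were not taken to pair the mice. Such a check on deviations within groups of 3 cannot exclude a pairing. With the letters as a replicate block 12 genes were called in all and 0 of the 10, with limma adjusted p-values of 0.147 for *Ccnd1* and 0.232 for *Ccnd3*. In that fit the SE fell for each of the 10 except *Cdkn2c*, where it rose from 0.21 to 0.23. For *Rb1* it fell from 0.21 to 0.099.

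The widest 95% interval among the 10 genes, that of *Rb1*, reached 0.47 to either side on the log2 scale with 3 mice a group. That width is no limit of detection, since genes were called on p-values adjusted over all genes tested. With the longest transcript as the length, the mean Control shares of the D cyclin sum were 9.73% for *Ccnd1*, 27.6% for *Ccnd2* and 62.7% for *Ccnd3*.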

Other observations

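Proteins that control the breakdown of D cyclins and p27, 12 genes in all, had a median log2 fold change of -0.055 (0.0019 without Control replicate 1 and -0.098 without Control replicate 3), and limma, edgeR and DESeq2 called none. *Rnf123*, a subunit of a ubiquitin ligase for p27, had 11084, 9908 and 9597 normalized counts in Control and 4922, 8467 and 6965 in LS1, with a log2 fold change of -0.62 ± 0.18 (SE) and a limma adjusted p of 0.245. Its groups did not overlap and LS1 replicate 1 was lowest. *Ubac1*, its partner subunit, had a log2 fold change of -0.42 ± 0.18 (SE) and a limma adjusted p of 0.367, and its groups overlapped.

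Markers of the other cell types in the epiphysis were also read in every library. The macrophage markers were above 0 in 9 of 10, with a median log2 fold change of 0.38. The study drew 1 of these, *Mpeg1*, from its list of genes that differed in these samples. The neutrophil markers were above 0 in 6 of 8, with a median of 0.23 (0.068 without LS1 replicate 3, 0.10 without Control replicate 2 and 0.36 without Control replicate 3). Osteoblast, osteoclast and endothelial markers had medians near 0, at 0.053, 0.026 and 0.093, and the sign of each turned when 1 library was left out (to -0.019 without LS1 replicate 1, -0.13 without LS1 replicate 3 and -0.0079 without LS1 replicate 3). The 7 osteoblast markers ranged from -1.10 to 0.37, with 4 above and 3 below 0. In the lower direction 2 of them did not overlap between the groups, where 8.94% of all tested genes did not. Muscle markers were below 0 in 5 of 5, with a median of -0.68, but single libraries carried that value, which was -0.089 without LS1 replicate 1, -0.23 without Control replicate 1 and -1.11 without LS1 replicate 2. Their sum ranged from 7080 to 18115 normalized counts in Control and from 3630 to 10875 in LS1. Interferon-stimulated genes were above 0 in 12 of 12, with a median of 1.57 that moved to 0.77 without LS1 replicate 2 and to 2.50 without LS1 replicate 3. They had a sum of 11578 to 19584 in Control, while LS1 replicates 1, 2 and 3 had 31219, 58778 and 14553. None of these markers passed the threshold in limma over all 6 libraries. Without LS1 replicate 3, limma called 7 interferon-stimulated genes and 3 macrophage markers, among 324 genes in all. DESeq2 on all libraries called 1 macrophage marker (higher in LS1) and 1 osteoblast marker (lower in LS1), among 456 genes in all.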
